A study of Homo sapiens with 15 samples.

Results

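Interferon-stimulated genes were examined as a set of 43 named genes, chosen by symbol from the deposited table. All 43 were found among 25737 listed entries, each 1 time, and 34 of them were among the 12870 genes with enough signal to be tested. The libraries came from U87MG, an established human glioblastoma line, 24 h after lentivirus was added. There were 5 groups of 3 libraries. The control group received a lentivirus for GFP, and the others received a lentivirus labelled as overexpressing ID1, ID2, ID3 or ID4, the family of helix-loop-helix proteins that bind and inactivate other factors of that class. All groups, the control included, were therefore exposed to lentivirus, and no untreated cells or cells given interferon were among them. A group is a single line at a single time, and nothing in the labels says whether its libraries came from separate cultures, so p-values measure the spread between libraries, which may be technical.

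Type I interferons signal through the receptor chains IFNAR1 and IFNAR2 and the kinases JAK1 and TYK2. The kinases activate STAT proteins such as STAT2, which joins IRF9 and binds a DNA element called the ISRE in the promoters of interferon-stimulated genes. Interferon gamma uses IFNGR1 and IFNGR2 and acts through another element, the GAS. The genes induced sense viral RNA, block its translation or cut it, hinder viral entry and release, and feed back on the pathway. Many are also made at a low level without added interferon.

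Most members with a promoter entry carried a motif of the ISRE type, a share that is not independent of choosing interferon-stimulated genes. RefSeq promoters on build GRCh38.p14, from 250 bases before the start of a gene to 50 bases after it, were matched for 34 of the 43 members. The names without an entry were DHX58, IRF7, IFIT2, OAS2, OASL, IFITM2, MX2, TRIM22 and USP18. The ISRE-type motif GAAANNGAAA, read on both strands and with overlapping matches counted, occurred in 24 of the 34 members (70.6%), against 4.38% of 27305 symbols with an entry. The GAS-type motif TTCNNNGAA occurred in 11 of the 34 members (32.4%), against 9.38% of all symbols. No ISRE-type match lay in the windows of STAT2, DDX58, IRF1, IRF9, IFI35, HERC6, SAMD9L, OAS1, XAF1 or CMPK2. These are matches of letters and were not measured as bound sites.

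Stretches of 160 bases that end just before the start of the gene are shown for 5 members, because they carry the ISRE-type match in genes whose levels are compared below. IFIT1 and ISG15 are standard reporters of an interferon response, OAS3 parted ID2 and ID3 from the other groups, and EPSTI1 and PARP14 lay on opposite sides of the GFP level. Capitals mark the match or its reverse complement, and each strand is the one the gene is read from.
IFIT1, plus strand, chr10:89392463-89392622: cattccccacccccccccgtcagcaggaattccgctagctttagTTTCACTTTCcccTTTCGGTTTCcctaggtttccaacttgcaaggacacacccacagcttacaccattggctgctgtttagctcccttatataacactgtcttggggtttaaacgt
ISG15, plus strand, chr1:1013337-1013496: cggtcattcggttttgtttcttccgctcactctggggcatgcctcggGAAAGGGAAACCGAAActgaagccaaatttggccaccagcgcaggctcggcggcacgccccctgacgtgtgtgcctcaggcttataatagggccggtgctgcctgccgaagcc
OAS3, plus strand, chr12:112938314-112938473: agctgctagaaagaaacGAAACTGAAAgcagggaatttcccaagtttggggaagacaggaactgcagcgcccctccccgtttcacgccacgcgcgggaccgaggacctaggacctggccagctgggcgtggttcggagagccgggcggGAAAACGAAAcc
EPSTI1, minus strand, chr13:42992242-42992401: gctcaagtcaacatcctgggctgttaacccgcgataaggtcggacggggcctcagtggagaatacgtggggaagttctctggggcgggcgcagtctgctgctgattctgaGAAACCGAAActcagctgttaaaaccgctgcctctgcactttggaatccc
PARP14, plus strand, chr3:122680679-122680838: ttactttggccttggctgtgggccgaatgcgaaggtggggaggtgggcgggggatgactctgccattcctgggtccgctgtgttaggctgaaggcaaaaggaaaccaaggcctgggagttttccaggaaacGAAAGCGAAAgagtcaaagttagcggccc
In the ISG15 stretch both matches overlap and begin 113 and 107 bases before the start. The EPSTI1 and PARP14 matches begin 50 and 29 bases before it.

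Library totals were 11089044 to 15148979 counts. Levels are given as CPM, counts scaled to the library total, in which the floor of 3 counts lay between 0.198 and 0.271, for counting error only. The targeted genes did not follow every label. Counts of ID4 were 0 to 2 under GFP and 2479 to 3110 in the libraries labelled ID4, at least 941-fold over the floor of 3 counts per GFP library. The gene ID4 was also called higher than GFP by edgeR under 2 other labels. It was at 2.39 log2 in ID2 (95% interval 0.89 to 3.90, adjusted p = 0.0129) and 2.30 in ID3 (0.78 to 3.83, adjusted p = 0.0217). In ID1 it was at 1.85 with no call (adjusted p = 0.103). These sizes rested on the few GFP counts. ID3 was 0.49 log2 higher in the libraries labelled ID3 than in GFP, but it was also 0.40 higher in those labelled ID2 (adjusted p = 7.18e-05), and the difference of ID2 from ID3 libraries in it was not called (-0.09, 95% interval -0.23 to 0.05, adjusted p = 0.415 from edgeR). By contrast, ID1 was 0.48 lower in those labelled ID1 and ID2 was 0.92 lower in those labelled ID2. Neither drop was confined to the matching label. The gene ID2 was called lower than GFP in every group, at -1.33, -0.92, -0.90 and -1.26 in ID1 to ID4. The gene ID1 was at -0.48, -0.11, -0.09 and -0.30, called in the groups ID1 and ID4. A 3′ tag counts a transgene only if its transcript keeps the gene's own 3′ end, which was not given in the sources used here, so whether the labels ID1, ID2 and ID3 name the gene added could not be told from these counts. Groups are named by their labels. Of the glioma markers, VIM, CD44, NES and EGFR were above the limit for testing, and S100B, GFAP, SOX2 and OLIG2 were at 0 to 11 counts in every library. The 3 genes known to be lost in U87MG stayed at 0 to 3 counts and 6 immune cell markers at 0 to 9.

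Most members were detected in these cells, and most lay under 10 CPM. A count of 3′ tags does not grow with transcript length, so CPM was compared between genes without a length term. Averaged over the 15 libraries, 32 of the 34 tested members were at 1 CPM or more, 11 at 10 CPM or more and 5 at 20 CPM or more. IRF1, IFIT5, HERC5 and EIF2AK2 were at the top of this order, with 25.96, 25.3, 22.5 and 21.4 CPM. Tested members had passed a filter on mean level, so the share at 1 CPM or more follows in part from that filter. Shares of all genes at these levels were not taken. Levels summed over all 43 members were 332 to 341 CPM in GFP, 327 to 336 in ID1, 303 to 318 in ID2, 319 to 343 in ID3 and 314 to 326 in ID4. The summed level in each ID2 and each ID4 library was thus below that in each GFP library, a difference that was not tested, while ID1 and ID3 overlapped GFP.

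The other 9 members were too low to test. RSAD2, which encodes the antiviral enzyme viperin, and its chromosome 2 neighbour CMPK2 had 0 counts in all 15 libraries. MX1, a dynamin-like GTPase that traps viral nucleocapsids, had 2, 0 and 0 counts in GFP, 2, 1 and 8 in ID1, 1 in each ID2 library, 3, 4 and 6 in ID3 and 2, 3 and 3 in ID4. OAS1, which makes the oligoadenylates that switch on RNase L, had 0 to 7 counts in every library. BST2, the tether that holds budding virions at the cell surface, had 1 to 9 counts, and IFI27 1 to 9. IFITM1 had 1 to 14 counts and ISG20, an RNA exonuclease, 3 to 18. XAF1, a pro-apoptotic member chosen here after its values were seen, had 0 or 1 count in each GFP and ID3 library, 1 or 2 in ID1, 3 to 5 in ID2 and 3 or 4 in ID4. With no filter on low values, edgeR called none of the 7 members that had counts in any of the 11 comparisons, and the lowest adjusted p was 0.0737, for XAF1.

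**Figure D1:**
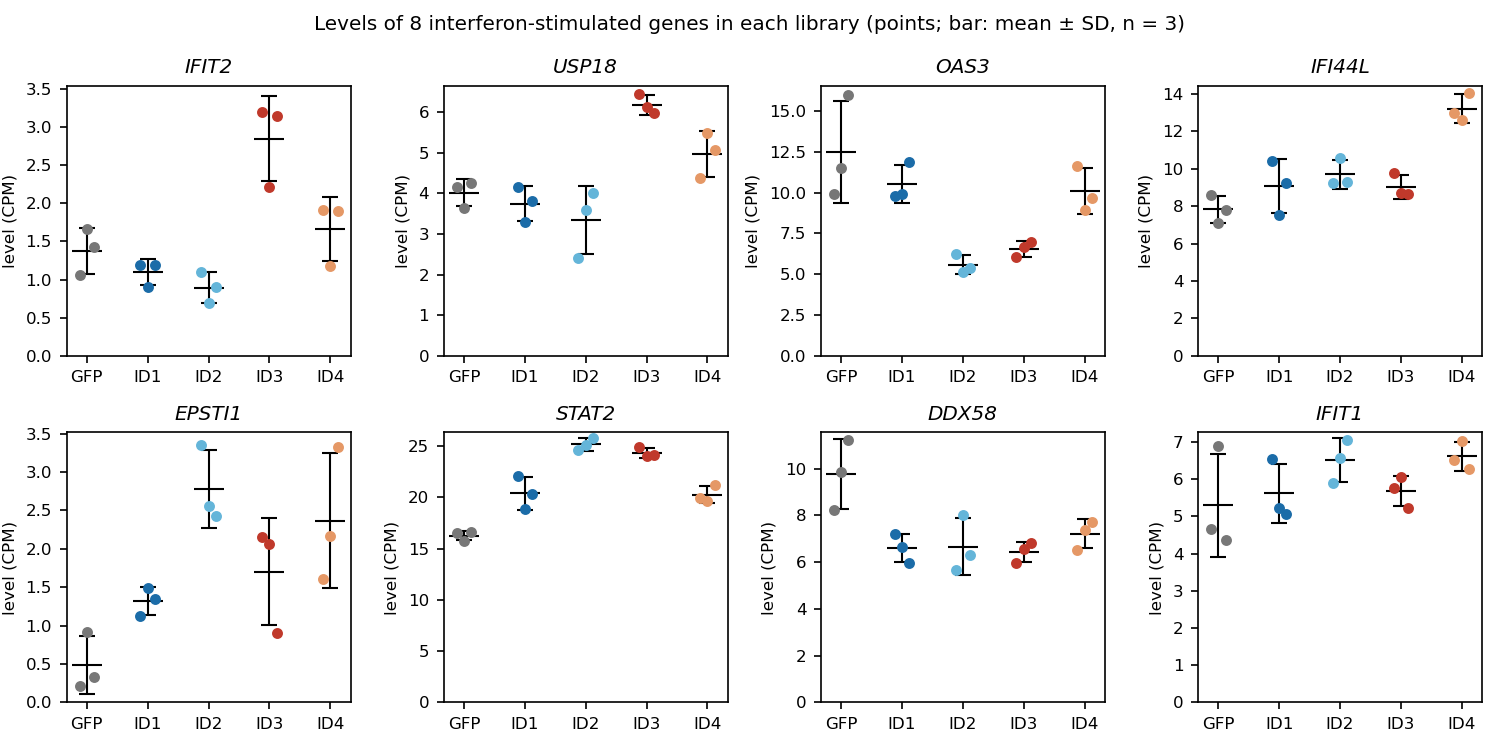
Level in CPM (y axis) of 8 members in each library of the 5 groups (x axis), with points for libraries and bars for mean ± SD (n = 3). IFIT2 and USP18 were highest in ID3, OAS3 was lowest in ID2 and ID3, IFI44L was highest in ID4, EPSTI1 and STAT2 were lowest and DDX58 highest in GFP, and IFIT1 overlapped among all groups.

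The direct comparison asked whether ID1 and ID2 differed from ID3 and ID4, as the average of the group means on the log2 scale with 6 libraries a side. Only IFIT2 and USP18 of the 34 tested members were called at an adjusted p under 0.05 (5.88%), where 9.4% of all 12870 genes were called by the same edgeR test. Both were lower in ID1 and ID2, and 0 members were called higher. A further 4 members passed an unadjusted p of 0.05 without passing after adjustment over all genes, so 6 did in all. The median difference of the members was -0.03 log2, the middle of all tested genes was 0.00244, and the median size of a difference was 0.10 for members and 0.09 for all genes. The GFP libraries entered this comparison only through the shared estimate of the spread.

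IFIT2 belongs to a family that binds viral RNA and holds back its translation, and it promotes cell death when abundant. Its counts were 18, 12 and 16 in ID1, 15, 10 and 13 in ID2, 46, 31 and 42 in ID3 and 25, 13 and 25 in ID4, with 15, 20 and 17 in GFP. The ID3 libraries were above all others, while 1 ID4 library, at 1.17 CPM, fell among those of ID1 and ID2, which reached 1.19 CPM. IFIT2 was 2.18-fold lower in ID1 and ID2 than in ID3 and ID4 (log2 difference -1.12, 95% interval -1.55 to -0.70, adjusted p = 0.000827 from edgeR). With each library left out in turn the difference stayed between -1.22 and -1.05 and was called in all 15 fits.

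USP18 removes ISG15 from proteins and blocks signalling at IFNAR2. Its levels were 4.16, 3.29 and 3.81 CPM in ID1, 2.40, 3.60 and 4.01 in ID2, 6.45, 6.12 and 5.98 in ID3 and 4.37, 5.50 and 5.07 in ID4. The GFP libraries, at 4.16, 3.65 and 4.27 CPM, were within or just above the range of ID1 and ID2. USP18 was 1.55-fold lower in ID1 and ID2 (log2 difference -0.63, 95% interval -0.89 to -0.36, adjusted p = 0.00222 from edgeR), and all 15 fits that left out a library called it. It was the only member whose 6 ID1 and ID2 libraries did not overlap the 6 of ID3 and ID4, as was so for 256 of all tested genes (1.99%). USP18 has a near-identical copy, USP41, and how reads were shared between copies is not given in the sources used here, so its counts are uncertain.

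Averaged over each side, most of the remaining members differed little. An average can hide differences within a side. Between ID1 and ID2, OAS3 (0.88), IFITM2 (0.51) and IRF1 (0.50) were called higher in ID1, and STAT2 (-0.33) and EPSTI1 (-1.10) lower. The EPSTI1 call was lost without ID1 replicate 1 or 3 or ID2 replicate 1, and in limma (adjusted p = 0.0713). In the direct comparison the 95% interval, taken per gene, lay within 1.5-fold in either direction for 28 of the 34 and within 2-fold for 31. The exceptions to the wider bound were IFIT2, IFIH1 at -0.45 (-1.15 to 0.25) and OAS2 at -0.34 (-1.07 to 0.38), the last pair having 3 to 20 counts a library. IFIT1 differed by -0.0029 (-0.25 to 0.24, adjusted p = 0.993), ISG15 by -0.03 (-0.19 to 0.13, adjusted p = 0.851), STAT2 by 0.04 (-0.08 to 0.16, adjusted p = 0.736) and IRF9 by -0.05 (-0.36 to 0.26, adjusted p = 0.888), all from edgeR. GBP1, a guanylate-binding protein named here after its values were seen, was nearest to a call on the higher side, at 0.30 (0.09 to 0.50, adjusted p = 0.0620). It was called when ID3 replicate 3 or ID4 replicate 2 was left out, at 0.34 in both fits, with adjusted p of 0.0438 and 0.0474.

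**Figure D2:**
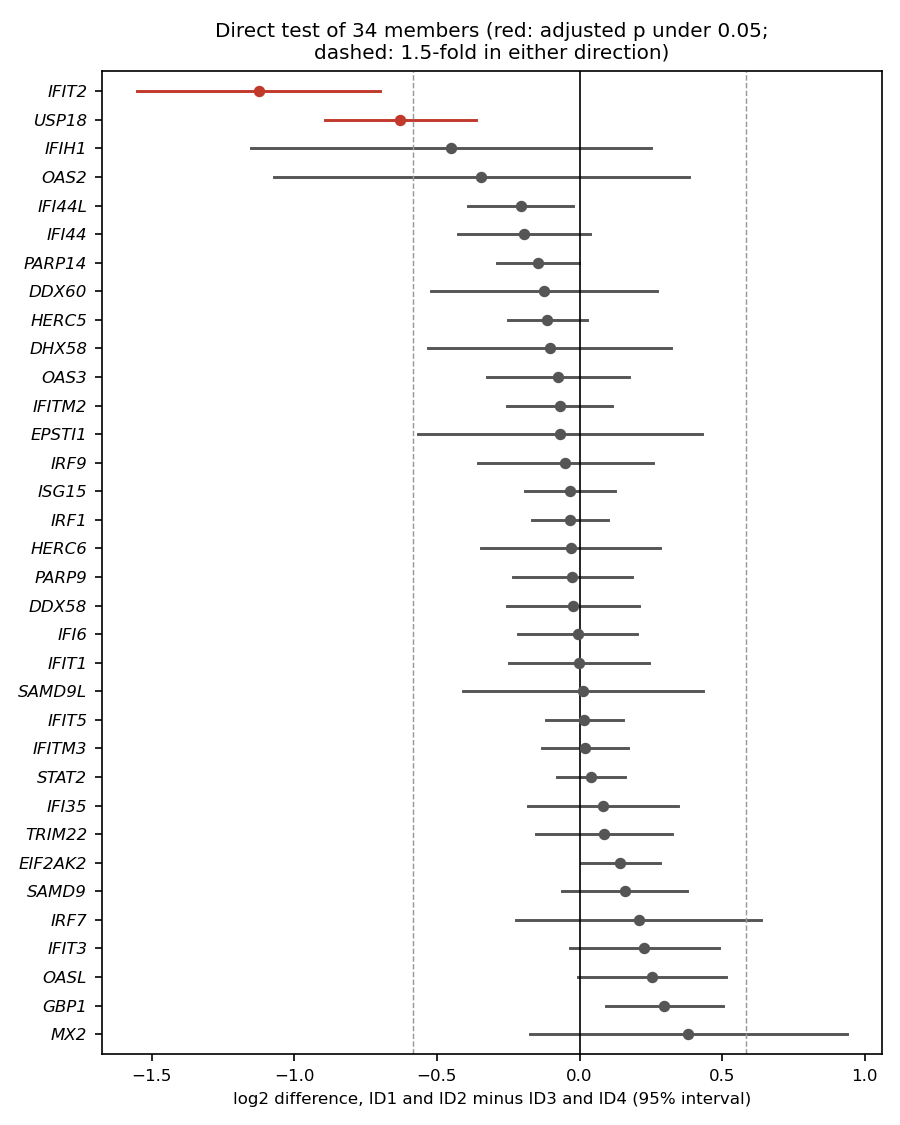
Log2 difference of ID1 and ID2 minus ID3 and ID4 (x axis) for the 34 tested members (y axis), with points for estimates and lines for 95% intervals. IFIT2 at -1.12 and USP18 at -0.63, in red, were the called members, and most intervals lay between the dashed lines at 1.5-fold.

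Single pairs of groups showed where each difference lay. IFIT2 was called against ID3 from both ID1 (-1.36, adjusted p = 0.00261) and ID2 (-1.62, adjusted p = 0.000346). Against ID4 it was -0.63 from ID1, which was not called, and -0.89 from ID2 (adjusted p = 0.0490), a call that stood in 3 of 15 fits with a library left out, lost without GFP replicate 2 or 3, any ID1 or ID2 library, ID3 replicate 1 or 3, or ID4 replicate 1 or 3. USP18 followed the same order, with -0.71 for ID1 and -0.85 for ID2 against ID3, and -0.41 and -0.55 against ID4. The first value was not called without ID1 replicate 2 (adjusted p = 0.0623), the difference of ID1 from ID4 was not called, and that of ID2 from ID4 (adjusted p = 0.0428) was called in 9 of the 15 fits, lost without ID1 replicate 3, ID2 replicate 1 or 2, ID3 replicate 2 or ID4 replicate 2 or 3. For ID2 against ID4, DESeq2 called neither IFIT2 (adjusted p = 0.102) nor USP18 (adjusted p = 0.0697), while limma called both. Between ID3 and ID4, IFIT2 differed by 0.74 and USP18 by 0.30, and neither was called.

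Over these pairs, 5 of 34 members were called between ID1 and ID3, where 9.18% of all genes were, and 1 between ID1 and ID4, where 4.87% were. Between ID2 and ID3, 5 members were called against 15% of all genes, and between ID2 and ID4, 6 members against 18.6%. Within the sides of the direct comparison, 5 members were called between ID1 and ID2 (18.6% of all genes) and 3 between ID3 and ID4 (11.3%). Leaving out 1 library took these counts to as low as 2 for ID1 and ID3 (without ID1 replicate 2 or 3 or ID3 replicate 1), 0 for ID1 and ID4 (without ID1 replicate 2 or ID4 replicate 3), 3 for ID2 and ID3 (without ID2 replicate 2), 2 for ID2 and ID4 (without ID2 replicate 1 or ID4 replicate 3) and 1 for ID3 and ID4 (without ID4 replicate 1).

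OAS3 and IFI44L, chosen here after their values were seen, split the groups in other ways than the direct comparison. OAS3, the OAS enzyme that makes oligoadenylates from long double-stranded RNA, had 6.27, 5.12 and 5.40 CPM in ID2 and 6.03, 6.69 and 6.96 in ID3. In ID1 it had 9.77, 9.94 and 11.9 CPM, in ID4 11.7, 8.93 and 9.69, and in GFP 9.93, 11.5 and 15.98. All ID2 and ID3 libraries thus lay below all others. The log2 difference was 0.88 for ID1 over ID2, 0.69 for ID1 over ID3, -0.84 for ID2 against ID4 and -0.64 for ID3 against ID4, all called by edgeR, so the average over both sides came to -0.08. The 50 tested genes nearest to OAS3 had median differences of 0.22, -0.04, -0.17 and 0.01 in the same order, and their part in the result was not tested. The difference of ID1 from ID3 was not called without ID1 replicate 3 or ID3 replicate 1, and that of ID3 from ID4 without ID3 replicate 1 or ID4 replicate 1 (highest adjusted p 0.0704 and 0.104).

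IFI44L, which encodes a cytoplasmic protein with antiviral activity, was highest in ID4. Its levels were 12.96, 12.6 and 14.1 CPM there and 7.13 to 10.6 CPM in the other 12 libraries. Its log2 difference was -0.55 for ID1, -0.43 for ID2 and -0.57 for ID3 against ID4, and all were called. The first was not called without ID1 replicate 2 or ID4 replicate 3 and the second without ID2 replicate 1 or ID4 replicate 3. Its neighbour IFI44 on chromosome 1 was not called in any of these pairs, with differences of -0.22, -0.36 and -0.19.

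**Figure D3:**
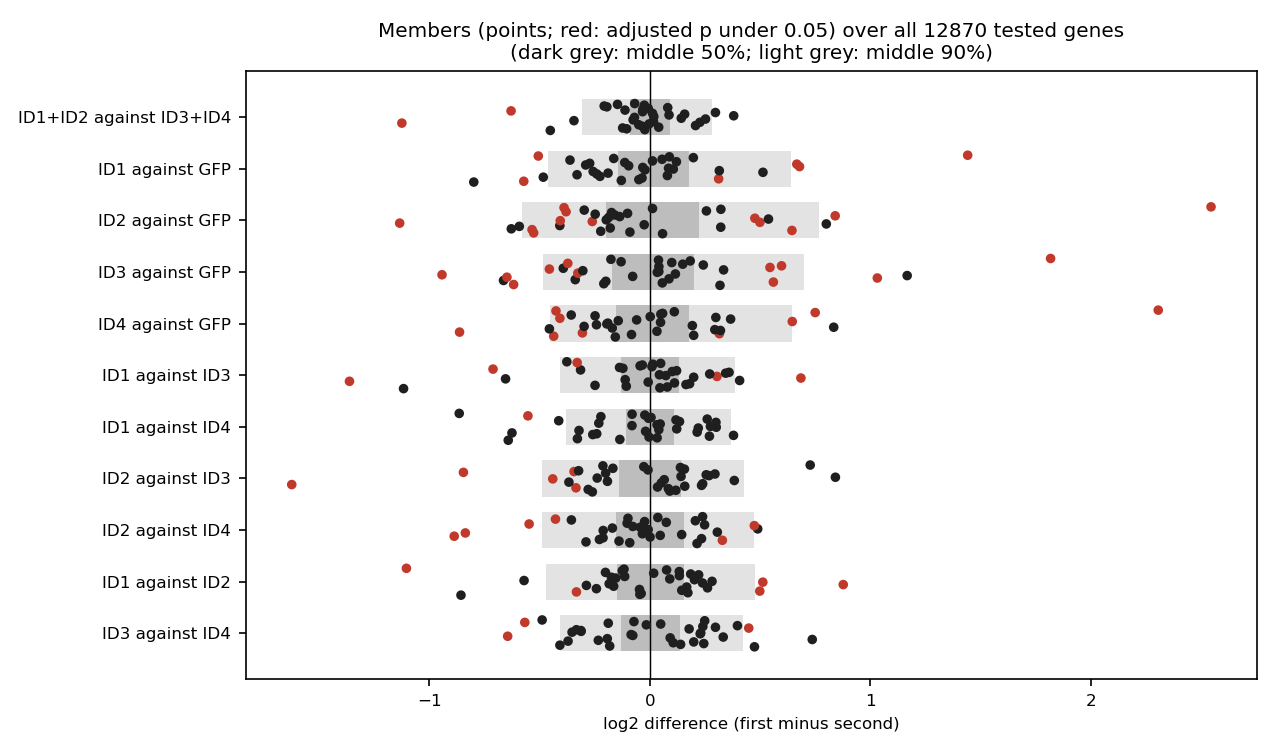
Log2 difference (x axis) of the 34 tested members in each of the 11 comparisons (y axis), over bands for the middle 50% and 90% of all 12870 tested genes. Between 4 and 7 members lay outside the wider band in a comparison, and the called members, in red, lay on both sides of 0 against GFP.

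Against GFP the members moved in both directions. In ID1, 4 of 34 were higher (11.8%, where 12.4% of all genes were) and 2 lower (5.88%, where 9.73% were). In ID2, 5 were higher (14.7%, all genes 18.5%) and 7 lower (20.6%, all genes 16.7%). In ID3, 5 were higher (14.7%, all genes 15.1%) and 6 lower (17.6%, all genes 13.5%). In ID4, 4 were higher (11.8%, all genes 12.1%) and 5 lower (14.7%, all genes 9.51%). The median difference of the members was -0.04 in ID1, -0.17 in ID2, 0.04 in ID3 and -0.03 in ID4, with all genes at 0.000979, -0.00388, -0.00249 and -0.00133. Members were measured less precisely than the average gene, with a median standard error of 0.16 to 0.17 log2 against 0.11. Without GFP replicate 2, ID3 had 6 calls in place of 11, and without ID4 replicate 2, ID4 had 5 in place of 9. These 4 comparisons share the GFP libraries, so their values are given side by side and not as independent results. The genes named for them below, other than IFIT1, ISG15, STAT2, IRF9 and the members of the direct test, were chosen after their values were seen. Since libraries came from whole cultures, a lower level in each cell and fewer cells that express a gene cannot be told apart.

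Among the RNA sensors and their regulators, DDX58 was the called member. It encodes RIG-I, which recognizes short RNA with a triphosphate end. Its levels were 8.24, 9.86 and 11.2 CPM in GFP, 7.20, 6.65 and 5.97 in ID1, 5.68, 8.03 and 6.30 in ID2, 5.96, 6.55 and 6.81 in ID3 and 6.52, 7.39 and 7.72 in ID4. All 3 GFP libraries were above every other library. The log2 difference from GFP was -0.57 ± 0.15 (SE) in ID1, -0.53 ± 0.15 in ID2, -0.62 ± 0.15 in ID3 and -0.44 ± 0.15 in ID4, with edgeR adjusted p of 0.00864, 0.00936, 0.00412 and 0.0462. The ID4 call stood in 7 of 15 fits with a library left out, lost without GFP replicate 2 or 3, ID1 replicate 1 or 2, ID3 replicate 2 or any ID4 library, and it was made neither by DESeq2 (adjusted p = 0.0646) nor by limma (adjusted p = 0.0513). The ID1 call was lost without GFP replicate 3 and the ID2 call without GFP replicate 3 or ID2 replicate 1. IFIH1 (MDA5, the sensor of long double-stranded RNA), DHX58 (LGP2) and DDX60 were not called in any group, at -0.80 to 0.32.

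The transcription factors parted. STAT2, which binds the ISRE in a complex with IRF9, had 16.5, 15.7 and 16.6 CPM in GFP, 22.05, 18.8 and 20.3 in ID1, 24.6, 25.1 and 25.8 in ID2, 24.9, 24.0 and 24.2 in ID3 and 19.9, 19.7 and 21.2 in ID4. Each library of the ID groups was above each GFP library. The log2 difference was 0.31 in ID1, 0.65 in ID2, 0.56 in ID3 and 0.32 in ID4, with standard errors of 0.08 to 0.09 and edgeR adjusted p of 0.00920, 2.27e-06, 2.39e-05 and 0.00978. Without ID1 replicate 1 the ID1 difference was 0.25 and was not called (adjusted p = 0.0670). The 50 tested genes nearest to STAT2 on chromosome 12 had median differences of 0.20, 0.25, 0.20 and 0.25 in the same order, and their part in the result was not tested. STAT2 was also higher in ID2 than in ID1 (log2 difference of ID1 from ID2 -0.33, adjusted p = 0.00512) and than in ID4 (0.33, adjusted p = 0.00595).

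IRF9, its partner, was not called, at -0.23, -0.18, -0.34 and 0.03 in ID1 to ID4. IRF1, induced by both types of interferon, was lower in ID2 (-0.53, adjusted p = 7.85e-05) and in ID4 (-0.31, adjusted p = 0.0179), the latter not called without ID4 replicate 2 or 3. IRF7, which drives interferon alpha genes, was at -0.48 to -0.66 in ID1 to ID3 with no call and was lower in ID4 (-0.86, adjusted p = 0.0334), a call that was lost without GFP replicate 1 or 3 or ID4 replicate 1 or 2 and in DESeq2 (adjusted p = 0.0777).

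Of the 8 tested members that act on viral RNA and translation, none was called in ID1 or ID4. In ID2, OASL was higher and OAS3 and EIF2AK2 were lower, and in ID3, IFIT2 was higher and IFIT3, OAS3 and EIF2AK2 were lower. OAS3 fell the most of the tested members, 2.20-fold in ID2 (-1.13, adjusted p = 1.61e-05) and 1.92-fold in ID3 (-0.94, adjusted p = 0.000169). The 50 tested genes nearest to OAS3 had medians of -0.20 in ID2 and -0.0031 in ID3. EIF2AK2, the kinase PKR that stops translation by phosphorylating its initiation factor, was at -0.02, -0.26, -0.33 and -0.24. Its ID2 call was lost without GFP replicate 2 or ID2 replicate 2 or 3, and its ID3 call without GFP replicate 2 or ID3 replicate 3. OASL, an OAS relative without that enzymatic activity, was 0.50 higher in ID2 and not called without GFP replicate 2 or 3 or ID2 replicate 1 or 3.

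The IFIT genes lie in a cluster on chromosome 10 of GRCh37, with IFIT2 from 91043451 to 91069028 and IFIT5 from 91174325 to 91181362, yet they differed in pattern. In ID3 IFIT2 was 1.03 higher than in GFP (adjusted p = 0.00526), IFIT3 was 0.65 log2 lower (-0.65, adjusted p = 0.00806, not called without GFP replicate 2), and IFIT1 and IFIT5 were at 0.09 and -0.08. IFIT1, the cap-sensing member, had 4.65, 6.88 and 4.35 CPM in GFP and 5.07 to 7.06 CPM in the other groups, which overlapped GFP throughout (0.08, 0.32, 0.09 and 0.32, no call). The 50 tested genes nearest to IFIT2 had a median difference of 0.01 in ID3 against GFP and -0.03 in the direct comparison. Exons of IFIT2 and IFIT3 share bases with LIPA on the other strand in the annotation, and whether the counting used strand was not given in the sources used here. LIPA differed by -0.02 in the direct comparison, and by 0.30 in ID3 and 0.32 in ID2 against GFP. Exons of IFIT2 also share bases with another annotated gene on the same strand, as do those of DDX58, IRF9, IFITM2, TRIM22 and IFI6. The part of such overlaps in the counts was not tested.

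Of the 7 tested members that act on virus entry, release and replication, GBP1 and TRIM22 were the called members on the higher side. GBP1, which coats vacuoles and bacteria, had 5.07, 6.71 and 6.28 CPM in GFP and 7.13 to 11.4 CPM in the other groups, with no overlap. It was 0.67 higher in ID1 (adjusted p = 0.00203), 0.84 in ID2 (adjusted p = 9.92e-05) and 0.55 in ID3 (adjusted p = 0.00845, not called without GFP replicate 1), and it was 0.37 in ID4 with no call. TRIM22, a ubiquitin ligase with antiviral activity, was 0.68 higher in ID1 (adjusted p = 0.00530), 0.48 in ID2 and 0.65 in ID4, and was at 0.33 in ID3 with no call. The ID2 call of TRIM22 was lost without GFP replicate 1 or 2 or ID2 replicate 1 or 2 and the ID4 call without GFP replicate 2 or ID4 replicate 2. IFITM2, which hinders fusion of virus with endosomes, was lower in ID2 (-0.41, adjusted p = 0.0162, lost without GFP replicate 2 or ID2 replicate 1 or 2). SAMD9 was lower in ID3 (-0.46, adjusted p = 0.0258, lost without GFP replicate 1 or 2 or ID3 replicate 2). IFITM3, MX2 and SAMD9L were not called in any group. Members of the IFITM family are near-identical in sequence, and their counts are uncertain for that reason.

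In the ISG15 conjugation system, ISG15 itself had 18.7, 19.1 and 18.2 CPM in GFP and 12.9, 14.7 and 14.8 in ID4, without overlap. It was lower in ID4 than in GFP (-0.41 ± 0.11, adjusted p = 0.00953) and than in ID3 (0.45 for ID3 over ID4, adjusted p = 0.00946), and neither was called without ID4 replicate 1, nor the latter without ID3 replicate 1. In ID1, ID2 and ID3 it was at -0.27, -0.16 and 0.04. USP18 was 0.60 higher in ID3 (adjusted p = 0.0135, not called without GFP replicate 2, adjusted p = 0.0570) and at 0.30 in ID4, -0.11 in ID1 and -0.25 in ID2 with no call. HERC5, the ligase that attaches ISG15, and its relative HERC6 were not called against GFP, at -0.25 to 0.24.

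EPSTI1 rose the most of the tested members. EPSTI1 was first described as a stromal-response gene of breast cancer. It had 3, 11 and 4 counts in GFP, 17, 20 and 18 in ID1, 46, 37 and 35 in ID2, 31, 29 and 12 in ID3 and 21, 24 and 44 in ID4. In CPM, the highest GFP library (0.912) was just above the lowest ID3 library (0.898) and below all others. The fold over GFP was 2.72 in ID1, 5.84 in ID2, 3.53 in ID3 and 4.95 in ID4, with log2 standard errors of 0.42 to 0.48 and edgeR adjusted p of 0.0344, 5.85e-05, 0.00468 and 0.000522. The ID1 call was lost without GFP replicate 1 or 3 or ID1 replicate 2 or 3. The size of each difference rested on the few GFP counts. Without GFP replicate 1 the log2 differences were 1.04, 2.14, 1.41 and 1.90 in ID1 to ID4, and without GFP replicate 2, the library with 11 counts, they were 2.24, 3.35, 2.62 and 3.11.

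PARP14, an ADP-ribosyltransferase, moved the other way. It had 18.4, 16.9 and 19.1 CPM in GFP, 12.5 to 13.2 in ID1, 13.02 to 14.5 in ID2, 15.1 to 18.02 in ID3 and 13.1 to 14.2 in ID4. It was lower in ID1 (-0.51, adjusted p = 0.000512), ID2 (-0.39, adjusted p = 0.00294) and ID4 (-0.43, adjusted p = 0.00289), each in all 15 fits with a library left out, and was at -0.18 in ID3 with no call. Its relative PARP9 was at 0.01 to 0.11 in all groups with no call. IFI6, which protects cells from apoptosis, was at -0.36 to -0.38 in all groups and called in ID2 and ID3. The ID2 call was lost without GFP replicate 1 or 2 or ID2 replicate 1 or 2, and the ID3 call stood in 5 of 15 fits, lost without GFP replicate 1 or 2, ID2 replicate 1, ID3 replicate 2 or any ID1 or ID4 library. IFI44L was 0.75 higher in ID4 (adjusted p = 0.000170), and IFI35 and IFI44 were not called in any group.

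**Figure D4:**
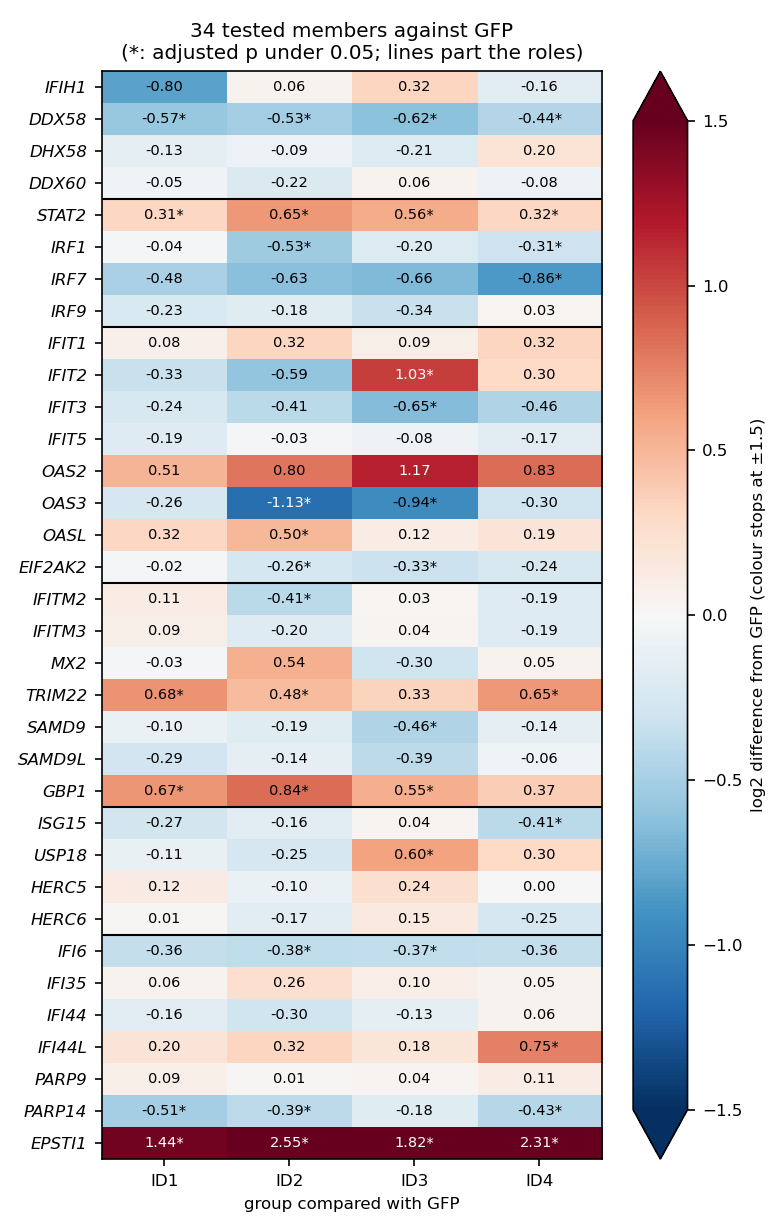
Log2 difference from GFP of the 34 tested members (rows, parted by role) in ID1 to ID4 (columns), with colour and number giving the difference and a star marking edgeR calls. DDX58 was at -0.44 to -0.62, with the star in ID4 from edgeR and not from DESeq2 or limma, STAT2 and EPSTI1 were higher in all columns, OAS3 was lower in ID2 and ID3, and IFIT2 and USP18 were higher in ID3.

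The genes upstream of the members were measured in the same libraries. Of 21 interferon ligand genes, 19 had 0 counts in all libraries, and IFNA4 and IFNA17 had 1 count in 1 library each, of ID4 and of ID3. Each was thus below the floor of 3 counts in every library. Of 9 receptor chains and kinases, 8 were tested. IFNGR2, the signalling chain of the interferon gamma receptor, had 50.2 to 56.8 CPM in GFP, 23.1 to 28.6 in ID1, 18.3 to 19.6 in ID2, 28.7 to 33.0 in ID3 and 32.7 to 36.0 in ID4. It was lower than GFP by 1.10 log2 in ID1 (-1.10), 1.48 in ID2 (-1.48), 0.79 in ID3 (-0.79) and 0.67 in ID4 (-0.67), all with adjusted p of 2.73e-06 or less from edgeR. In the direct comparison it was lower in ID1 and ID2 (-0.56 ± 0.06, adjusted p = 1.60e-06). No library of ID1 or ID2 reached those of ID3 or ID4, though ID1 and ID3 nearly met. Such a lack of overlap was seen for 1.99% of all tested genes. IFNGR2 also differed within a side, at 0.38 for ID1 over ID2 (adjusted p = 0.00482 from edgeR). The differences of ID1 from ID3 and ID4 were -0.31 and -0.43, both called.

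IFNAR1, the type I receptor chain, went the other way in the direct comparison (0.24 ± 0.05, adjusted p = 0.00260). The ID3 libraries, at 66.2 to 70.3 CPM, were below all others (74.8 to 93.5 CPM). It was lower than GFP in ID3 (-0.41, adjusted p = 0.000128) and at -0.03, -0.05 and -0.15 in ID1, ID2 and ID4 with no call. IFNAR2, IFNGR1, JAK2 and TYK2 were not called in the direct comparison or against GFP. JAK1 and IL10RB, named after their values were seen, were called against GFP in each group, JAK1 at 0.36, 0.37, 0.52 and 0.26 and IL10RB at -0.25, -0.27, -0.28 and -0.31. Neither was called in the direct comparison (-0.02 and 0.03).

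**Figure D5:**
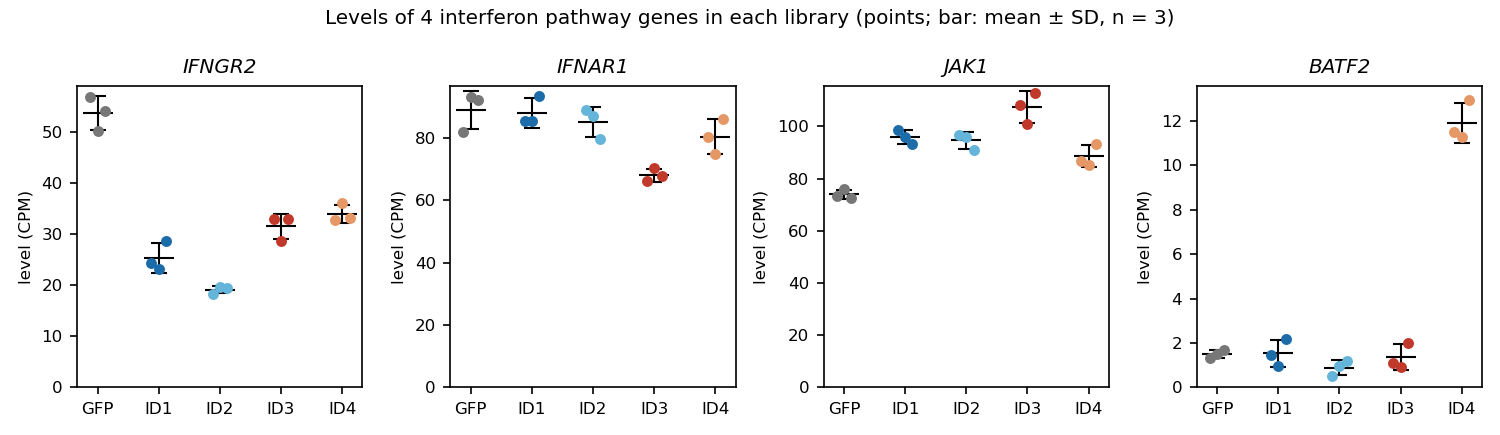
Level in CPM (y axis) of IFNGR2, IFNAR1, JAK1 and BATF2 in each library of the 5 groups (x axis), with points for libraries and bars for mean ± SD (n = 3). IFNGR2 was highest in GFP and lowest in ID2, IFNAR1 was lowest in ID3, JAK1 was lowest in GFP, and BATF2 stood at 11.3 to 12.9 CPM in ID4 and at most 2.16 CPM elsewhere.

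Other lists of the pathway moved little in the direct comparison. Of 12 tested genes of nucleic acid sensing, IFI16, a sensor of nuclear DNA, was called at -0.20 (adjusted p = 0.00319), with 228 to 248.7 CPM in ID4 and 174 to 210 in ID1, ID2 and ID3. Against GFP, IFI16 was called lower in ID1 (-0.23) and ID2 (-0.20), and was at -0.13 in ID3 and 0.11 in ID4 with no call. It was called against ID4 from ID1 (-0.34), ID2 (-0.31) and ID3 (-0.24). Against ID3 it was called from neither ID1 (-0.10) nor ID2 (-0.07). Among 34 tested other type I interferon targets, TRIM38 was called at 0.22 (adjusted p = 0.0309) and BATF2 at -1.76 (adjusted p = 9.95e-06). Of the single pairs across the sides, TRIM38 was called only for ID2 against ID3 (0.32). BATF2, a leucine zipper factor induced by interferon, was 7.93-fold higher in ID4 than in GFP (2.99, adjusted p = 8.52e-09), while in ID1, ID2 and ID3 it was at 0.02, -0.72 and -0.17 with no call, so its direct difference came from the ID4 libraries. Of 13 tested targets that lean to interferon gamma, CIITA, the regulator of MHC class II genes, was called at -0.21 (adjusted p = 0.0400). It was called against ID4 from ID1 (-0.32) and from ID2 (-0.44), and against ID3 from neither (0.02 and -0.10). It was also lower in ID3 than in ID4 (-0.34, called).

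Against GFP, 12.4%, 18.5%, 15.1% and 12.1% of all tested genes were called higher in ID1 to ID4, and 9.73%, 16.7%, 13.5% and 9.51% lower. Receptors and kinases had 1 higher and 2 lower in ID1, ID2 and ID4, and 1 higher and 3 lower in ID3. Nucleic acid sensing had 1 higher and 3 lower in ID1, 1 and 2 in ID2 and in ID3, and 1 and 1 in ID4. The other type I targets had 2 higher and 4 lower in ID1, 3 and 9 in ID2, 2 and 8 in ID3, and 3 and 6 in ID4, of 34 tested. As shares these were 5.88%, 8.82%, 5.88% and 8.82% higher and 11.8%, 26.5%, 23.5% and 17.6% lower, with fewer higher and more lower calls than among all genes in each group, a difference that was not tested. The targets leaning to interferon gamma had 3 higher and 2 lower in ID1, 3 and 6 in ID2, 3 and 2 in ID3, and 1 and 3 in ID4. The median of the 34 other type I targets was -0.02, -0.09, -0.12 and -0.02 log2 in ID1 to ID4, where that of all tested genes was 0.000979, -0.00388, -0.00249 and -0.00133.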

How the data were processed

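QuantSeq 3′ libraries of U87MG cells were sequenced and processed by a company against hg19 (GRCh37). The submitters' processing notes name BWA and Bowtie2, and the counting tool and its use of strand were not given in the sources used here. The authors deposited raw counts per gene symbol for 15 libraries, and beside them log2 values that the authors had normalized between libraries. CPM is the count divided by the library's total.

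Counts were fitted with edgeR 4.0.16 in R 4.3.3 (TMM factors 0.978 to 1.03, quasi-likelihood test, 1 mean per group over all 15 libraries). The 12870 genes whose mean deposited log2 value was in the upper 50% (3.22 or more) were tested. P-values were adjusted over these genes by Benjamini-Hochberg, and calls were made at 0.05. The direct comparison set the mean of ID1 and ID2 against that of ID3 and ID4. Tests were run on simulated counts first. DESeq2 1.42.0, limma 3.58.1 on the deposited log2 values, other filters, a replicate block, the rule of the study's methods (over 2-fold and an unadjusted p under 0.05) and leaving out each library were alternatives.

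The members, the other lists and the tests were chosen with earlier results of these data known. Full statistics went to members called in the direct test and to IFIT1, ISG15, MX1, OAS1, STAT2 and IRF9, and up to 3 genes of each other list were named, those called in the direct test. The receptors and kinases were an exception. All 8 tested genes of that list were named, and only IFNAR1 and IFNGR2 of them were called in the direct test. Lists overlap in a few genes, and 1 gene and the list of signal transducers are not reported here. Positions came from GENCODE on GRCh37 and promoters from RefSeq on GRCh38.p14. Plots used matplotlib 3.10.9 under Python 3.11.15.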

Additional observations from a re-analysis of the deposited data

How the results depend on the processing

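In the direct comparison, IFIT2 and USP18 were called under all alternatives that tested them, namely other size factors, DESeq2, limma, 2 other filters, only the groups compared, a replicate block and 15 fits that each left out 1 library. With only the upper 25% of genes by mean, which neither gene reached, the count was 0. Members called fell to 1, 3, 3 and 2 for ID1, ID2, ID3 and ID4 against GFP under that filter, and to 0, 3, 3 and 2 under the rule of the study's methods, which needs a 2-fold change. The upper 25% held 6436 genes, so fewer members were tested under it. Over all 25737 listed entries, the rule of the methods called 631, 834, 621 and 599 in the same order. The upper 25% also left 2 members for ID1 against ID3, 0 for ID1 against ID4, 2 for ID2 against ID3, 1 for ID2 against ID4, 2 for ID1 against ID2 and 1 for ID3 against ID4. For ID1 against ID3, DESeq2 called 3 and no filter called 3, and for ID2 against ID3, only the groups compared called 3. For the last 3 counts the cause was not tested. For ID2 against ID4, DESeq2 called 4 in place of 6, without IFIT2 and USP18, for ID4 against GFP 7 in place of 9, without DDX58 and IRF7, and limma 8, without DDX58.

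With each library left out in turn, calls ranged from 6 to 12 for ID3 against GFP, 5 to 11 for ID4 against GFP, 2 to 7 for ID1 against ID3, 0 to 1 for ID1 against ID4, 3 to 6 for ID2 against ID3, 2 to 6 for ID2 against ID4 and 1 to 4 for ID3 against ID4. The direct difference of 13 members, none of them called, changed sign in at least 1 fit. Its range over these fits was -0.098 to 0.029 for DDX58, -0.21 to 0.0034 for DHX58, -0.089 to 0.0021 for IRF1, -0.15 to 0.041 for IRF9, -0.068 to 0.031 for IFIT1, -0.043 to 0.055 for IFIT5, -0.025 to 0.058 for IFITM3, -0.10 to 0.21 for SAMD9L, -0.069 to 0.0095 for HERC6, -0.096 to 0.047 for IFI6, -0.016 to 0.20 for IFI35, -0.091 to 0.039 for PARP9 and -0.22 to 0.10 for EPSTI1. In limma, IFI6 was at 0.001 and EPSTI1 at 0.0115.

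Deviations from the group mean, compared between libraries of equal replicate number, had correlations of -0.25 to 0.24 over 30 pairs (mean -0.02). The labels do not say what the numbers mean, so whether they mark a shared batch is not known. The replicate block left 2 members called in the direct comparison and a member median of -0.03, gave 4 in place of 6 for ID2 against ID4 and 6 in place of 5 for ID1 against ID2, and kept the other 8 counts. Depth limited IFIH1 and OAS2, at 3 to 20 counts a library, and EPSTI1 in GFP, at 3 to 11.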
